A study of Mus musculus with 4 samples.

Results

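The mRNAs of 40 genes of mitosis were followed through single-cell RNA sequencing of mouse ascites. They were taken by name, from a list of genes used in G2 and M phase of the cell cycle. All 40 were among the 29835 genes of the series, were present in each of the 4 libraries, and passed the limit of 100 unique molecular identifiers (UMIs, each counting 1 captured RNA molecule) in at least 1 library of tumour cells. The smallest sum of a member in the tumour cells of a library was 387 UMIs, for Cdca2 in BTYNB.

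The model was ID8-Trp53-/-, a p53-deficient mouse ovarian cancer line labelled with a near-infrared fluorescent protein and injected into the peritoneal cavity of female immunocompetent C57BL/6 mice aged 6 weeks, so the tumour cells of all 4 groups lack Trp53. Treatment started after 7 days and was repeated until about 3 mL of ascites had collected. The control group received DMSO with an IgG2a isotype antibody. The BTYNB group received BTYNB, a small-molecule inhibitor of the RNA-binding protein Igf2bp1, with the isotype antibody. The anti-PD-1 group received DMSO with a PD-1 blocking antibody (clone RMP1-14), and the combination group received BTYNB with that antibody. GEO's labels give 50 mg/kg of BTYNB and 100 ng of antibody per dose, and the methods of the study give other amounts. Ascites of the animals of a group was pooled, depleted of erythrocytes and frozen before capture, so each group is 1 library and the spread between animals is not measured. No test was possible between groups. The intervals given here are 95% intervals of counting error alone, and a difference between groups is a difference between 2 libraries.

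Cells double their DNA in S phase, condense and separate the chromosomes in M phase, and prepare for this in the gap called G2. The mRNAs of the proteins that build the spindle, hold the chromosomes on it and drive the kinase Cdk1 accumulate from late S phase into M phase and are degraded or no longer made after division, so that a dividing cell population holds some cells with many and many cells with few of them. Their shared control acts through promoter elements bound by the DREAM, B-Myb and FoxM1 complexes, among them the cell cycle genes homology region (CHR) and CCAAT boxes, which NF-Y binds. Sums of these mRNAs are widely used as a measure of proliferation in tumours.

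Promoter windows from RefSeq (GRCm38.p6, from 250 bases before to 50 bases after the transcription start) were found for 34 of the 40 members, 37 windows in all; Aurkb, Ccna2, Cdca2, Dlgap5, Smc4 and Tpx2 had none. The CHR letters searched were TTTGAA and TTCGAA, and the CCAAT box was searched as CCAAT, each on either strand. A CHR stood in 27 of the 37 member windows (73.0%), against 19.2% of all 32851 windows. A CCAAT box stood in 29 (78.4%), against 37.4%, and both in 23 (62.2%), against 7.52%. At least 2 CCAAT boxes stood in 22 member windows (59.5%) and in 11.7% of all windows. The letters of a CHR and a CCAAT box overlapped in 1 place. These are matches of letters and not measured binding sites.

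The stretch from 120 bases before to 30 bases after the start is shown for 8 members whose values are described below. It is written 5′ to 3′ on the strand of the gene, with CHR and CCAAT letters of either strand in capitals.
Cdk1 (chr10:69352883-69353032, minus strand): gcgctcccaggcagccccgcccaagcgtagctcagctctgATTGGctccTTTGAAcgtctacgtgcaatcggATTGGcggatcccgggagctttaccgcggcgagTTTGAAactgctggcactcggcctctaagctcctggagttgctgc
Ccnb2 (chr9:70421525-70421674, minus strand): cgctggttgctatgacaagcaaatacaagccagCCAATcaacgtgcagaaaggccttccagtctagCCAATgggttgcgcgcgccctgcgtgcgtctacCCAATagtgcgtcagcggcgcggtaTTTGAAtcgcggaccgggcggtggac
Ube2c (chr2:164769809-164769958, plus strand): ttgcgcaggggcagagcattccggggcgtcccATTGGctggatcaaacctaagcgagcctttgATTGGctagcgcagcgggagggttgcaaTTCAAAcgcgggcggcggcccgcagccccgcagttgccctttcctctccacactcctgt
Cdc20 (chr4:118437314-118437463, minus strand): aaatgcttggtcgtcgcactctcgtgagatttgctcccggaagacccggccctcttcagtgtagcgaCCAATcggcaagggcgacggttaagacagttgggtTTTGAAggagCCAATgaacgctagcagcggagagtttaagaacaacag
Bub1 (chr2:127831830-127831979, minus strand): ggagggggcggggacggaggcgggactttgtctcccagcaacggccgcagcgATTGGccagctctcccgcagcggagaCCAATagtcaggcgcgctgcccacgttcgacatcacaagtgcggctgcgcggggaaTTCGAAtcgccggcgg
Kif2c (chr4:117178743-117178892, minus strand): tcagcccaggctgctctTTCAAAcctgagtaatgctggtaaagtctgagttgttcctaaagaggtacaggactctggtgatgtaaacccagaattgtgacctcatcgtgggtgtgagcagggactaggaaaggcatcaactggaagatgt
Top2a (chr11:99024160-99024309, minus strand): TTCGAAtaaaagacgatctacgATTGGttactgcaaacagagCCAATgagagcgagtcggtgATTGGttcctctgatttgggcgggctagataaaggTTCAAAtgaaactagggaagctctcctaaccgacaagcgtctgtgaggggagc
Hmgb2 (chr8:57511723-57511872, plus strand): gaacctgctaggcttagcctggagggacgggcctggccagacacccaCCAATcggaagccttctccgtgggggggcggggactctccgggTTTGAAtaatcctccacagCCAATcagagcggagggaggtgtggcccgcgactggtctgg

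Positions are given within the stretch shown, counting the first transcribed base as 1. Cdk1 had CCAAT boxes at -80 and -48 and CHR letters at -71 and -15. Ccnb2 had CCAAT boxes at -87, -54 and -21 and a CHR at 5. In this stretch Ube2c had CCAAT boxes at -88 and -57 and a CHR at -29. The Kif2c stretch held a CHR at -103 and no CCAAT letters. Kif2c and Ccnb2, the members with the largest and the smallest deficit in BTYNB (below), therefore both carried CHR letters.

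Cells were gated by their UMIs. Tumour cells had at least 5 UMIs of Krt7, Krt8, Krt18, Krt19 and Wt1 together, none of the leukocyte gene Ptprc, and at least 5115 UMIs in all, the lowest total of a deposited combination cell. They numbered 6829 in control, 8782 in anti-PD-1, 2812 in BTYNB and 4369 in combination. Their 10 tumour markers summed to 3706 to 4693 CPM (counts per 1000000 UMIs), all 10 with UMIs in every library (5 of them, such as Msln, no part of the gate), while 7 myeloid markers summed to 49.1 to 133 CPM and 8 T cell markers to 12.8 to 22.3 CPM. Other lists were higher: 6 B cell markers summed to 689.9 (control) to 920.3 CPM (BTYNB), of which Cd74, a chaperone of MHC class II, made 676 to 881 CPM, and 4 fibroblast markers to 244 (anti-PD-1) to 435 CPM (BTYNB), of which Dcn, decorin, made 203 to 308 CPM. Their part in the results was not tested. The libraries differed in depth. The lowest total of a deposited cell was 4438 UMIs in control, 3533 in anti-PD-1, 869 in BTYNB and 5115 in combination, and the median tumour cell held 9987 in control, 7870.0 in anti-PD-1, 18310.5 in BTYNB and 11503 in combination. Between 0 and 4 cell barcodes were shared by any 2 libraries.

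In tumour cells the 40 members together made up 4304 CPM in control (4289 to 4319), 4551 in anti-PD-1 (4536 to 4567), 3089 in BTYNB (3074 to 3103) and 3691 in combination (3675 to 3707). Relative to total UMIs, both libraries with BTYNB thus lay below their partner without it. Counted per cell without regard to depth, the median tumour cell held 14 member UMIs in control, 12 in anti-PD-1, 15 in BTYNB and 13 in combination, which is another order. In CPM, BTYNB had the lowest level of the 4 libraries for 39 of the 40 members, the exception being Hmgb2, which was lowest in anti-PD-1. The highest level was found in anti-PD-1 for 28 members and in control for the other 12.

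The comparison of BTYNB with control asks how the inhibitor alone stands to vehicle. The log2 ratio of the sums was -0.48 (-0.49 to -0.47). All 40 members lay below 0, and 39 were lower by at least 1.2-fold, the size used here to call a difference. None was higher. Among the 13037 genes tested in tumour cells, 16.8% were called lower and 17.4% higher in this comparison. The median member stood at -0.51, against 0.00 for all genes (log2 of CPM plus 1). At 1.5-fold, 14 members were lower, against 3.28% of all genes.

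Anti-PD-1 against control gave a mixed picture, with a summed log2 ratio of 0.08 (0.07 to 0.09). Here 28 members lay above 0 and 12 below. Called higher were 8 members, among 15.2% of all genes, and called lower were 2, Hmgb2 and Cdc20, among 24.5%. The median member was at 0.09 and the median gene at -0.08. Scaling the libraries by the median of ratios in place of totals called 15 members higher and 2 lower, while 19.9% of all genes were then higher and 16.8% lower. Hmgb2 and Cdc20 stayed lower under that scaling.

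Combination against anti-PD-1 asks about BTYNB on top of the antibody, and its summed log2 ratio was -0.30 (-0.31 to -0.29). Below 0 were 39 members, and 28 of them were called lower, against 15.9% of all genes. Hmgb2 was the 1 member called higher, against 25.3% of all genes. The median member stood at -0.37 and the median gene at 0.06. This comparison shares no library with BTYNB against control. In all, 39 members were below 0 in both, 27 were called lower in both, and the log2 ratios of the 40 members in the 2 comparisons had a Pearson correlation of 0.33, which describes genes and not replicates. The same joint counts and correlation are not given for all genes, so these values have no background beside them and are a description of the members.

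Combination against BTYNB gave 0.26 (0.25 to 0.27). All 40 members lay above 0, and 16 were called higher and 0 lower, where 6.34% of all genes were called higher and 3.58% lower. The median member was at 0.24. It shares a library with each of the first and the preceding comparison, as anti-PD-1 against control also does, so these are not independent of each other.

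**Figure D1:**
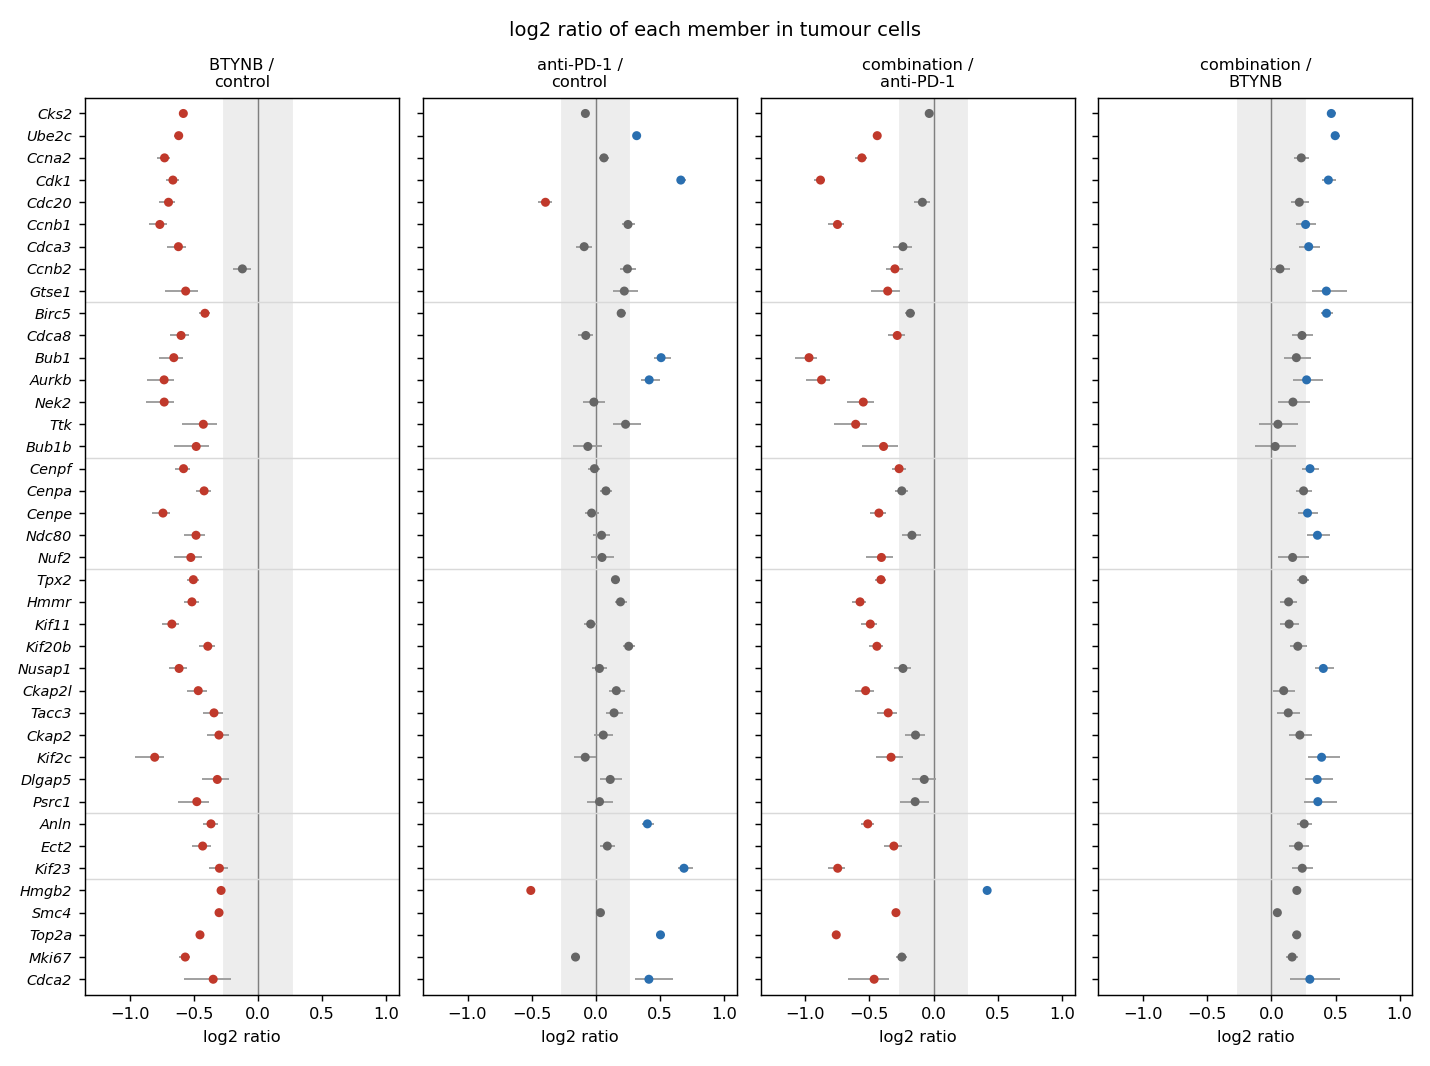
Dots give the log2 ratio (CPM plus 1) of each of the 40 members in tumour cells for the 4 comparisons, grey lines the 95% counting interval, and the grey band differences under 1.2-fold; red dots are called lower and blue dots higher. The members lie left of 0 in BTYNB / control (39 called), scatter around 0 in anti-PD-1 / control, and lie left of 0 again in combination / anti-PD-1 except Hmgb2.

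Depth moved with these values. Within each library, the deepest tumour cells had the highest member level. From the lowest to the highest quartile of total UMIs the members went from 2648 to 5303 CPM in control, from 2135 to 4191 in BTYNB, from 2958 to 5757 in anti-PD-1 and from 2901 to 4316 in combination. In BTYNB the first 3 quartiles lay between 2037 and 2543 CPM. Across libraries the order was another: BTYNB cells were the deepest and had the lowest level. Comparing quartile with quartile, BTYNB stood to control at -0.31, -0.77, -0.81 and -0.34 on the log2 scale from the lowest to the highest quartile. Combination stood to anti-PD-1 at -0.03, -0.40, -0.30 and -0.42, so the lowest quartile showed almost no difference. Restricting all libraries to cells of 10000 to 20000 UMIs, a limit chosen after the data were seen, gave log2 ratios of -1.33 between BTYNB and control and -0.66 between combination and anti-PD-1. Between the libraries that differ by the antibody it gave 0.26 without and 0.93 with BTYNB. There, 40 members were called lower in BTYNB than in control (25% of 11775 genes) and 37 in combination than in anti-PD-1 (21.5%), and anti-PD-1 had 19 members called higher (17.4%) and 2 lower (32.3%) than control. In that window the median depth was still 12860.0 UMIs in control and 15342.5 in BTYNB. It began above the median tumour cell of control (9987 UMIs) and near the start of the highest quartile of anti-PD-1 (9709). In BTYNB, where the median cell held 18310.5 UMIs, it covered quartile 2 (12615 to 18306). As the level rose toward the deepest cells within each library, the window did not take like parts of the libraries. The directions of the sums held, but the sizes depended on how the cells were matched for depth, and the part of depth in the differences was not tested.

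**Figure D2:**
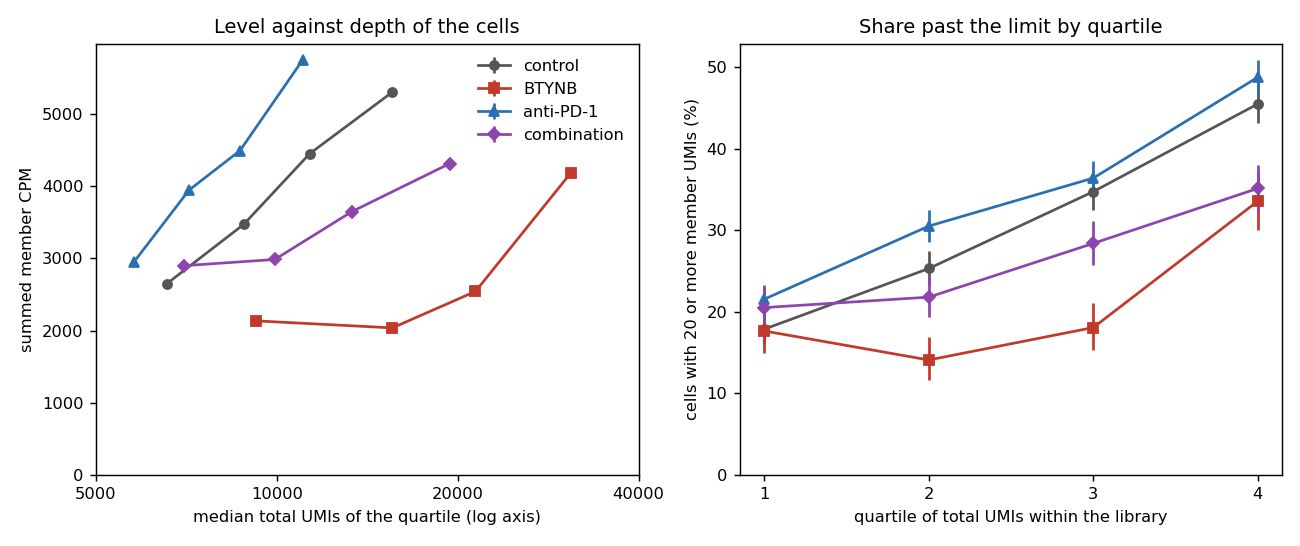
Left, summed member CPM of tumour cells (linear axis from 0) against the median total UMIs of each depth quartile (log axis); right, the share of tumour cells with 20 or more member UMIs after thinning, by quartile, with 95% exact intervals. Levels climb with depth in control, anti-PD-1 and combination, whereas the first 3 BTYNB quartiles stay between 2037 and 2543 CPM.

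By role, the Cdk1, cyclin and exit group had the largest deficit in BTYNB. Its 9 members summed to 1176 CPM in control, 1326 in anti-PD-1, 767 in BTYNB and 1006 in combination, a log2 ratio of BTYNB to control of -0.62. Cdk1, the kinase whose activity starts mitosis, had 136 CPM in control, 217 in anti-PD-1, 85.8 in BTYNB and 117 in combination. BTYNB stood to control at -0.66 (95% counting interval -0.72 to -0.62) on the log2 scale, the interval being that of the CPM ratio without the added 1, and combination to anti-PD-1 at -0.88 (95% counting interval -0.93 to -0.85). The highest level was that of anti-PD-1, 0.66 above control. The mitotic cyclins, which bind and activate it, did not move alike. Ccnb1, cyclin B1, had 76.9 CPM in control, 91.8 in anti-PD-1, 44.9 in BTYNB and 54.2 in combination, and its ratio of BTYNB to control was -0.76 (95% counting interval -0.85 to -0.71). Ccnb2, cyclin B2, had 53.5 CPM in control, 63.7 in anti-PD-1, 49.1 in BTYNB and 51.5 in combination, and with -0.12 (95% counting interval -0.19 to -0.05) it was the member with the smallest difference and the 1 that was not called. The intervals of both cyclins in this comparison do not meet. Ccna2, cyclin A2, which acts earlier, had 137 CPM in control, 143 in anti-PD-1, 82.3 in BTYNB and 96.9 in combination.

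The exit genes of this group gave further contrasts. Ube2c, the ubiquitin-conjugating enzyme of the anaphase-promoting complex, had 303 CPM in control, 379 in anti-PD-1, 197 in BTYNB and 279 in combination. Its ratio was -0.62 in BTYNB against control, and with 0.50 (95% counting interval 0.46 to 0.53) it was the member with the largest excess of combination over BTYNB. Cdc20, an activator of the same complex, had 87.1 CPM in control, 66.1 in anti-PD-1, 53.4 in BTYNB and 62.2 in combination: it was highest in control, and anti-PD-1 stood to control at -0.39. Cks2, a small subunit that binds Cdk1, had 305 CPM in control, 288 in anti-PD-1, 204 in BTYNB and 282 in combination. Here 3 libraries lay close together and BTYNB apart, so that combination to BTYNB was 0.47 and combination to anti-PD-1 only -0.03. Cdca3, which promotes entry into mitosis, and Gtse1, a microtubule-associated protein of G2, were lower in BTYNB than in control, at log2 ratios of -0.62 and -0.56.

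**Figure D3:**
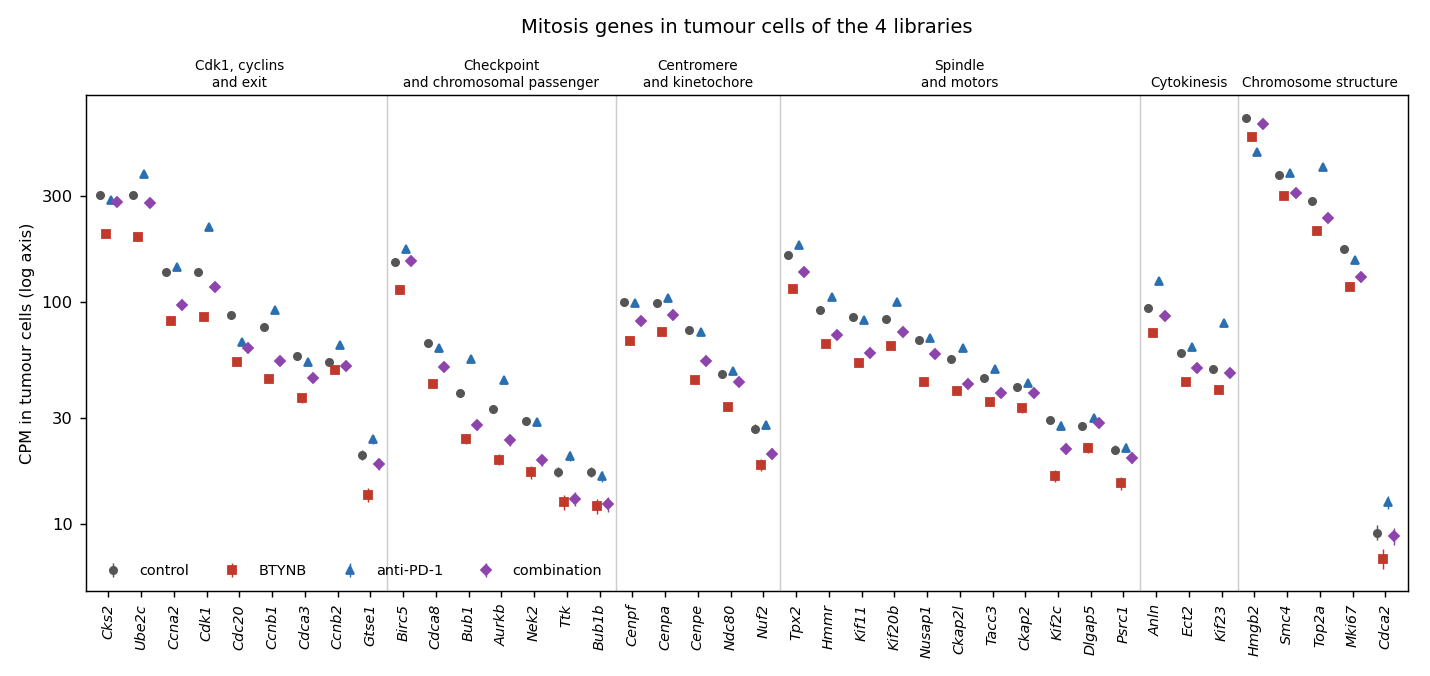
Symbols give the CPM of each member in tumour cells (log axis) for the 4 libraries, grouped by role and ordered by control level, with 95% Poisson intervals that are mostly smaller than the symbols. BTYNB (squares) is the lowest symbol for 39 of 40 members, and anti-PD-1 (triangles) the highest for 28.

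Genes of the spindle checkpoint, which delays anaphase until every chromosome is attached, and of the chromosomal passenger complex summed to 352 CPM in control, 401 in anti-PD-1, 242 in BTYNB and 299.98 in combination. All 7 were called lower in BTYNB against control (16.8% of all genes) and 6 of 7 in combination against anti-PD-1 (15.9% of all genes). Bub1, a checkpoint kinase at the kinetochore, had 38.7 CPM in control, 55.5 in anti-PD-1, 24.2 in BTYNB and 27.8 in combination. Combination stood to anti-PD-1 at -0.97 (95% counting interval -1.08 to -0.91), the lowest value of the 40. Aurkb, the kinase of the passenger complex, had 32.96 CPM in control, 44.4 in anti-PD-1, 19.5 in BTYNB and 23.7 in combination. Relative to control, both were called higher in anti-PD-1 (0.51 and 0.42) and lower in BTYNB (-0.66 and -0.73). Birc5, survivin, another subunit of that complex, had 151 CPM in control, 174 in anti-PD-1, 114 in BTYNB and 153 in combination. Combination and control were level for it, and its ratio of combination to BTYNB was 0.43. Cdca8, borealin, had 65.4 CPM in control, 61.9 in anti-PD-1, 42.8 in BTYNB and 50.7 in combination, and Nek2, a kinase that splits the centrosomes, had 29.0 CPM in control, 28.7 in anti-PD-1, 17.1 in BTYNB and 19.3 in combination. Among subunits of 1 complex, anti-PD-1 to control was thus 0.42 for Aurkb, 0.20 for Birc5 and -0.08 for Cdca8. Bub1b and Ttk, also of the checkpoint, were at or below 20.3 CPM in every library and had ratios of combination to BTYNB near 0 (0.03 and 0.05).

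The 5 genes of centromere and kinetochore, the structure that ties a chromosome to the spindle, summed to 348 CPM in control, 354 in anti-PD-1, 237 in BTYNB and 288 in combination. All 5 were called lower in BTYNB against control (16.8% of all genes). None was called in anti-PD-1 against control, where their ratios ran from -0.03 to 0.08. Of all genes, 24.5% were called lower and 15.2% higher there. Cenpf, a large kinetochore protein, had 99.8 CPM in control, 99.2 in anti-PD-1, 66.5 in BTYNB and 82.1 in combination. Cenpa, the histone H3 variant of the centromere, had 98.7 CPM in control, 104 in anti-PD-1, 73.6 in BTYNB and 87.7 in combination. Cenpe, a kinetochore motor, had 75.05 CPM in control, 73.4 in anti-PD-1, 44.5 in BTYNB and 54.3 in combination, and its ratio of BTYNB to control was -0.74 (95% counting interval -0.82 to -0.68), against -0.42 (95% counting interval -0.48 to -0.37) for Cenpa. Ndc80 and Nuf2, partners in the complex that grips microtubules, were at -0.48 and -0.52. Control and anti-PD-1 lay side by side for this group and both BTYNB libraries lay below them.

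Spindle and motor genes, 11 in number, summed to 711 CPM in control, 773 in anti-PD-1, 501 in BTYNB and 587 in combination. All 11 were called lower in BTYNB against control (16.8% of all genes) and 7 in combination against anti-PD-1 (15.9%). None was called in anti-PD-1 against control, where 24.5% of all genes were called lower and 15.2% higher. Tpx2, which activates Aurora A on the spindle, had 163 CPM in control, 181 in anti-PD-1, 114 in BTYNB and 136 in combination. Hmmr, a spindle assembly protein, had 92.4 CPM in control, 106 in anti-PD-1, 64.4 in BTYNB and 70.8 in combination. Kif2c, a kinesin that shortens microtubules, had 29.4 CPM in control, 27.7 in anti-PD-1, 16.4 in BTYNB and 21.8 in combination, and its ratio of BTYNB to control, -0.80 (95% counting interval -0.95 to -0.73), was the lowest of the 40. Kif11, the motor that pushes the spindle poles apart, was at -0.67, and Kif20b, another kinesin, at -0.39. Ckap2l, a spindle protein, and Psrc1, which binds microtubules, were at -0.46 and -0.48. Ckap2, Dlgap5 and Tacc3, which bind and stabilise spindle microtubules, had the smallest deficits of the group, -0.30, -0.32 and -0.34. Dlgap5 and Psrc1 were nearly level between combination and anti-PD-1 (-0.07 and -0.14) but called higher in combination than in BTYNB (0.36 and 0.36). Nusap1, which bundles microtubules, had the highest ratio of that last comparison in the group, 0.40.

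Cytokinesis genes, which close the cell after the chromosomes have parted, were the group with the largest excess in anti-PD-1. Anln, Ect2 and Kif23 summed to 202 CPM in control, 267 in anti-PD-1, 156 in BTYNB and 184 in combination, which put anti-PD-1 at 0.40 against control (0.37 to 0.44). Kif23, a motor of the central spindle, had 49.6 CPM in control, 80.6 in anti-PD-1, 40.1 in BTYNB and 47.6 in combination. Its ratio of anti-PD-1 to control, 0.69 (95% counting interval 0.64 to 0.76), was the highest of the 40, and combination to anti-PD-1 was -0.75. Anln, an actin-binding scaffold of the cleavage furrow, had 93.5 CPM in control, 124 in anti-PD-1, 72.3 in BTYNB and 86.6 in combination. Ect2, the exchange factor that activates RhoA there, had 58.8 CPM in control, 62.6 in anti-PD-1, 43.4 in BTYNB and 50.3 in combination and was not called in anti-PD-1 against control. All 3 were called lower in BTYNB against control (16.8% of all genes), with Kif23 at -0.30.

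Genes of chromosome structure summed to 1515 CPM in control, 1430.2 in anti-PD-1, 1187 in BTYNB and 1325 in combination, the smallest deficit in BTYNB of the 6 groups together with cytokinesis (-0.35 and -0.37). Hmgb2, a DNA-bending protein that is also made in cells outside G2 and M, had 676 CPM in control, 475 in anti-PD-1, 554 in BTYNB and 635 in combination. It was the member with the most UMIs, 15.7% of all member UMIs in control tumour cells and 10.4% in anti-PD-1. Its order of libraries was its own: anti-PD-1 to control was -0.51 (95% counting interval -0.53 to -0.49) and combination to anti-PD-1 0.42 (95% counting interval 0.40 to 0.44). Top2a, the topoisomerase that untangles sister chromosomes, had 286 CPM in control, 406 in anti-PD-1, 209 in BTYNB and 239 in combination. Its ratios in those comparisons had the opposite signs, 0.51 and -0.76. In BTYNB against control both genes lay below 0. Mki67, the proliferation antigen Ki-67 that coats mitotic chromosomes, had 173 CPM in control, 155 in anti-PD-1, 116 in BTYNB and 130.2 in combination, at -0.16 in anti-PD-1 against control without a call. Smc4, a condensin subunit, had 372 CPM in control, 382 in anti-PD-1, 301 in BTYNB and 311 in combination, and combination to BTYNB was 0.05. Cdca2, which recruits a phosphatase to chromatin, had the fewest UMIs of the 40, with 9.12 CPM in control, 12.5 in anti-PD-1, 6.95 in BTYNB and 8.78 in combination. Without Hmgb2, Smc4, Cks2, Tacc3 and Ckap2, which are also counted outside G2 and M, the summed ratio of the other 35 was -0.55 in BTYNB against control and 0.21 in anti-PD-1 against control.

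Members used late (Ccnb1, Ccnb2, Cdc20, Cenpa, Cenpe, Cenpf, Hmmr, Nek2, Tpx2, Dlgap5, Psrc1, Cks2) were set against 8 used from G2 on (Top2a, Cdk1, Ccna2, Kif11, Tacc3, Smc4, Hmgb2, Nusap1). The ratio of late to G2 UMIs in tumour cells was 0.626 in control (0.620 to 0.631), 0.633 in anti-PD-1 (0.627 to 0.638), 0.563 in BTYNB (0.557 to 0.570) and 0.609 in combination (0.603 to 0.616). Hmgb2 and Smc4 alone made up 47.0% (anti-PD-1) to 62.7% (BTYNB) of the G2 sum. Without them, a choice made after the data were seen, the ratio was 1.49 in control (1.48 to 1.51), 1.19 in anti-PD-1 (1.18 to 1.205), 1.51 in BTYNB (1.49 to 1.53) and 1.56 in combination (1.54 to 1.58). BTYNB was lowest with both genes counted and anti-PD-1 was lowest without them, so the ratio is not read as a time within G2 and M.

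To see whether few cells with many member UMIs or many cells with few set the sums, each tumour cell was thinned to 5115 UMIs and its member UMIs were counted. A count of 20 or more was reached by 30.9% of control (29.8 to 32.0%), 34.3% of anti-PD-1 (33.3 to 35.3%), 20.8% of BTYNB (19.4 to 22.4%) and 26.5% of combination tumour cells (25.2 to 27.8%). The order of the libraries was that of the sums. Without thinning the shares were 43.5% in control, 41.7% in anti-PD-1, 41.0% in BTYNB and 40.2% in combination, so at the depth as sequenced the order was another, with control highest and BTYNB above combination, and BTYNB had the deepest cells. Cells past the limit held on average 51.8 member UMIs in control, 53.1 in anti-PD-1, 50.2 in BTYNB and 51.6 in combination. Cells below it held 5.89 member UMIs in control, 5.48 in anti-PD-1, 4.47 in BTYNB and 5.52 in combination. In BTYNB against control, the mean over all tumour cells differed by -0.52 on the log2 scale, the share past the limit by -0.57, the mean of cells past it by -0.05 and the mean of cells below it by -0.40. Fewer cells past the limit, and lower counts below it, therefore went with the lower sum, while cells past the limit held similar counts in all 4 libraries.

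The limit is a point on a continuous range: 6.29% (BTYNB) to 8.86% (control) of tumour cells lay from 15 to 24 UMIs. Median counts were 7 in control, 8 in anti-PD-1, 4 in BTYNB and 6 in combination, and the share of cells with none was 1.87% in control, 2.58% in anti-PD-1, 3.98% in BTYNB and 2.47% in combination. Cells past the limit took 74.7% (BTYNB) to 83.5% (anti-PD-1) of the thinned member UMIs. They were the deeper cells of each library, with a median of 22368 against 17695 UMIs in BTYNB and 11642 against 9338 in control, and had a lower mitochondrial share (10.3 against 11.4% in control). By depth quartile, the share past the limit was 17.9% in control and 17.6% in BTYNB in the lowest quartile, with overlapping intervals, and 45.5% (43.1 to 47.9%) and 33.6% (30.1 to 37.2%) in the highest.

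Tumour cells were split by UMIs of Cxcl17 (at least 3) and of Cd24a, Gkn2 and Krtdap (at least 5 together), genes that mark parts of the tumour compartment here. Cells with the Cd24a set alone had the highest member level in each library, 6430.5 CPM in control, 5660.2 in anti-PD-1, 4489 in BTYNB and 5303 in combination, in 155 (BTYNB) to 1113 (anti-PD-1) cells. Cells with Cxcl17 alone had 4232 CPM in control, 3990.2 in anti-PD-1, 2596 in BTYNB and 3273 in combination. Cells with neither had 4133 CPM in control, 4297 in anti-PD-1, 3115 in BTYNB and 3582 in combination. Cells with both had 4766 CPM in control, 4905 in anti-PD-1, 3973 in BTYNB and 4543 in combination. The subsets differed in depth. In control the median cell held 12657 UMIs with the Cd24a set alone, 15176 with both and 8766 with neither. In BTYNB these medians were 23885, 28431 and 14806. The part of depth in the subset levels was not tested. BTYNB was the lowest library in each of the 4 subsets. Its log2 ratio to control was -0.70 (-0.72 to -0.69) with Cxcl17 alone, -0.52 (-0.55 to -0.49) with the Cd24a set alone, -0.26 (-0.29 to -0.24) with both and -0.41 (-0.42 to -0.39) with neither, and all 40 members lay below 0 in each of the 3 subsets where they were counted singly (Cxcl17 alone, the Cd24a set alone, neither).

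For anti-PD-1 against control the subsets disagreed with the whole. The summed ratio was 0.08 over all tumour cells, but -0.08 (-0.10 to -0.07) with Cxcl17 alone, -0.18 (-0.21 to -0.16) with the Cd24a set alone, 0.04 (0.02 to 0.06) with both and 0.06 (0.05 to 0.07) with neither. Cells with the Cd24a set, with or without Cxcl17, were 1113 and 1519 of 8782 in anti-PD-1 and 212 and 270 of 6829 in control. Within the Cd24a set alone, Kif23 and Bub1 still had anti-PD-1 above control (0.70 and 0.72), while Hmgb2 and Cdc20 were at -1.09 and -1.10. With Cxcl17 alone, Kif23 was at 0.14 and Bub1 at -0.21. Combination against anti-PD-1 was below 0 in each subset, from -0.29 with Cxcl17 alone to -0.09 with the Cd24a set alone.

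**Figure D4:**
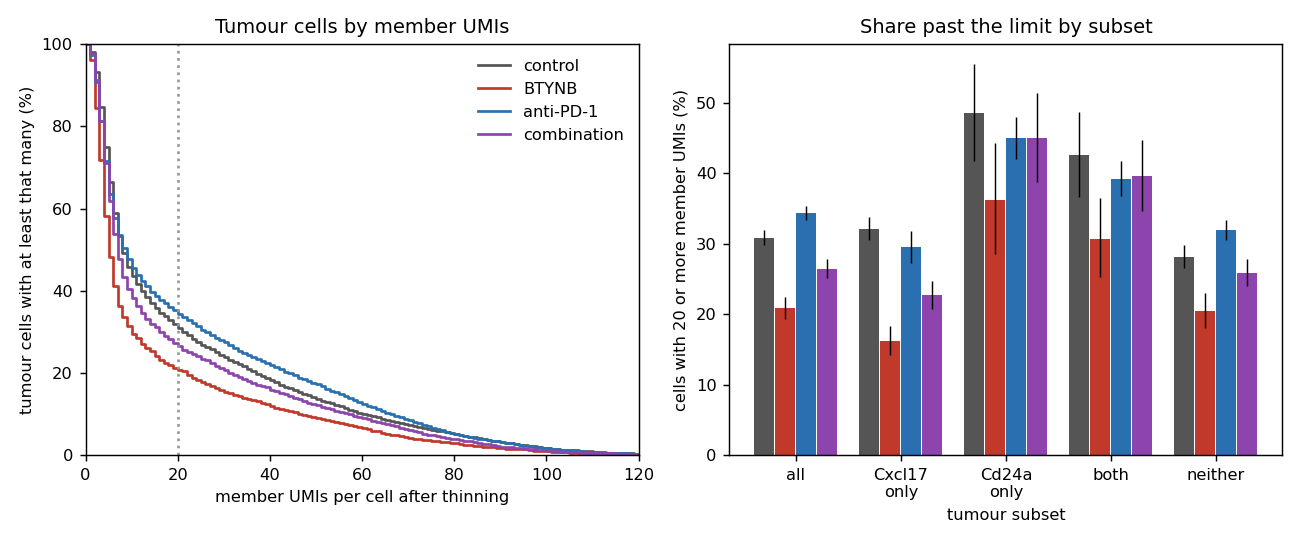
Left, the share of tumour cells with at least a given number of member UMIs after thinning to 5115 UMIs, with the limit of 20 dotted; right, the share with 20 or more by tumour subset, with 95% exact intervals. The BTYNB curve lies lowest from a few UMIs on, crossing 20 UMIs at 20.8%, and BTYNB has the lowest bar in every subset.

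Members differed in how tightly they belonged to the cells with high sums. For each member, cells with 20 or more UMIs of the other 39 were set against cells with fewer than 10. The median member was 19.7-fold higher in the former in control, 33.7-fold in BTYNB, 19.9-fold in anti-PD-1 and 20.9-fold in combination. Ube2c was the sharpest in each library, from 60.6-fold in combination to 133-fold in BTYNB. Smc4 was the flattest, from 3.74 to 4.44-fold, followed by Hmgb2 (4.43 to 4.93-fold). Hmgb2 had a UMI in 91.0% of control tumour cells and Ube2c in 37.0%. Over the tumour cells of a library, the correlation of a member with the sum of the others (log scale, Pearson, 2812 to 8782 cells that share their library's depth) ran from 0.33 for Bub1b in anti-PD-1 to 0.85 for Tpx2 in BTYNB. As the cells were picked by co-members and depth rises with the sum, these folds are descriptions of the list.

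Among 11829 genes outside the list with at least 100 UMIs in each library, those most like the summed members over tumour cells were Prc1 (Pearson correlation 0.75 to 0.78 over the 4 libraries), which bundles the central spindle, H2az1 (0.68 to 0.70), a histone variant, Cep55 (0.67 to 0.77) and Racgap1 (0.65 to 0.76), both of cytokinesis, and Spc24 (0.64 to 0.71), a kinetochore subunit. Stmn1 (0.64 to 0.73), a tubulin-binding protein, Incenp (0.61 to 0.69), of the passenger complex, Pclaf (0.61 to 0.74), a PCNA-binding protein, a gene listed by identifier only (0.61 to 0.70) and Mad2l1 (0.59 to 0.72), of the checkpoint, completed the first 10. Of these 10, 7 belong to the partner list described next.

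Other genes of the cycle were compared by list. Of 40 mitotic partners, 32 were called lower and 0 higher in BTYNB against control, 30 lower and 0 higher in combination against anti-PD-1, 11 higher and 1 lower in anti-PD-1 against control, and 13 higher and 0 lower in combination against BTYNB. Of all genes tested, in that order of comparisons, 16.8%, 15.9%, 24.5% and 3.58% were called lower. Called higher were 17.4%, 25.3%, 15.2% and 6.34%. Plk1, a kinase that acts throughout mitosis, had 31.4 CPM in control, 30.2 in anti-PD-1, 15.9 in BTYNB and 22.5 in combination, the lowest ratio of BTYNB to control of that list (-0.94), and Prc1 had 166 CPM in control, 189.8 in anti-PD-1, 89.9 in BTYNB and 115 in combination (-0.88). Pkmyt1, a kinase that inhibits Cdk1, and Ncapd2, a condensin subunit, were at the other end with 0.21 and 0.10. The list thus followed the members, with exceptions.

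Of 25 S phase genes, 19 were called lower and 0 higher in BTYNB against control, 10 lower and 1 higher in combination against anti-PD-1, and 7 lower and 3 higher in anti-PD-1 against control. Of all genes, in that order, 16.8%, 15.9% and 24.5% were lower and 17.4%, 25.3% and 15.2% higher. The S phase counts in anti-PD-1 against control were thus close to the shares of all genes. The median S phase gene in BTYNB against control was at -0.37, against -0.51 for the members. Cdc6, which licenses origins of replication, and E2f8, a repressor of the E2F family, were lowest (-0.71 and -0.70), and Cdt1 and Fen1 were nearest to 0 (-0.01 and -0.12). In tumour cells past the limit of 20 member UMIs against those below it, the median S phase gene was higher by 0.78 to 1.31 on the log2 scale and the median partner by 3.10 to 3.61.

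Of 21 genes of CDK inhibitors and G1, 18 passed the UMI limit. In BTYNB against control 6 were called lower and 1 higher, against 16.8% and 17.4% of all genes. Btg2, an antiproliferative gene, was the 1 called higher, with 324 CPM in control, 279 in anti-PD-1, 518 in BTYNB and 466 in combination (0.68). Ccnd2, a D-type cyclin, came next at 0.12. Ccne2, an E-type cyclin, and Cdkn1a, the inhibitor p21, were lowest at -0.75 and -0.58. Cdkn1a had 15.3 CPM in control, 46.0 in anti-PD-1, 9.93 in BTYNB and 10.1 in combination, so it was high in anti-PD-1 alone, the library in which 28 of the 40 members were highest. Btg2 was lower in cells past the limit of member UMIs than in cells below it in each library, with a log2 ratio of -1.10 in combination.

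Myeloid cells (at least 3 UMIs of Lyz2 and Csf1r together, at most 2 keratin UMIs) numbered 292 in control, 384 in anti-PD-1, 3134 in BTYNB and 1258 in combination. Their members summed to 5084 CPM in control (4978 to 5192), 3762 in anti-PD-1 (3671 to 3855), 1973 in BTYNB (1951 to 1994) and 2970.1 in combination (2936 to 3005). BTYNB against control was -1.37 (-1.40 to -1.33) on the log2 scale, with all 40 members below 0, and combination against anti-PD-1 was -0.34 (-0.38 to -0.30), with 39 below 0. After thinning to 1000 UMIs, 4 or more member UMIs were found in 39.4% in control, 31.5% in anti-PD-1, 8.43% in BTYNB and 20.8% in combination, and in tumour cells at the same depth in 32.4% in control, 35.2% in anti-PD-1, 22.0% in BTYNB and 28.4% in combination. Without thinning, the myeloid shares were 77.4% in control, 63.8% in anti-PD-1, 45.9% in BTYNB and 78.1% in combination. In control the share of myeloid cells lay above that of tumour cells (33.7 to 45.2% against 31.3 to 33.5%), and in BTYNB well below. Myeloid cells with 3 or 4 UMIs, next to that limit, numbered 23 in control, 35 in anti-PD-1, 226 in BTYNB and 95 in combination.

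Hmgb2 led the members in myeloid cells, with 839 CPM in control, 524 in anti-PD-1, 636 in BTYNB and 698 in combination, and made up 32.2% of member UMIs in BTYNB but 16.5% in control. The other 39 summed to 4244 CPM in control, 3238 in anti-PD-1, 1337 in BTYNB and 2272 in combination, so that BTYNB lay farther below control than with Hmgb2 counted. Top2a had 357 CPM in control, 315 in anti-PD-1, 121.2 in BTYNB and 221 in combination, and Mki67 364 CPM in control, 207 in anti-PD-1, 112 in BTYNB and 195 in combination. Smc4 had 458 CPM in control, 308 in anti-PD-1, 197 in BTYNB and 276 in combination, Ube2c 305 CPM in control, 251 in anti-PD-1, 87.3 in BTYNB and 161 in combination and Cks2 201 CPM in control, 169 in anti-PD-1, 91.1 in BTYNB and 142 in combination. Of the 40 members, 13 had a higher CPM in tumour than in myeloid cells in control, 30 in anti-PD-1, 39 in BTYNB and 29 in combination. Myeloid cells with at least 10 UMIs of the neutrophil markers S100a8, S100a9, Retnlg and Csf3r, of which BTYNB held 97 and the other libraries 0 to 2, had 5786 CPM there, with Hmgb2 at 2435. Cells with C1q genes had 5122 CPM in control, 3679.6 in anti-PD-1, 2096 in BTYNB and 2851 in combination, and cells with Xcr1 and Clec9a, markers of type 1 dendritic cells, 1726 in BTYNB (201 cells) and 3096 in combination (183 cells).

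Other values moved with the myeloid result. The 10 tumour markers in the myeloid gate summed to 323 CPM in control, 555 in anti-PD-1, 147 in BTYNB and 274 in combination, all 10 with a UMI in every library, against 3706 CPM or more in tumour cells. The gate itself limits the keratins among them. Fibroblast markers, which it does not limit, summed to 340 CPM in control, 562 in anti-PD-1, 9.03 in BTYNB and 55.4 in combination. The makeup of the gate thus differed between libraries, and its part in the myeloid levels was not tested. Cells with no keratin or Wt1 UMI had 5340.2 CPM in control and 1966 in BTYNB, a gap as large as before. Myeloid cells held a median of 5344 UMIs in control, 4202 in anti-PD-1, 4392 in BTYNB and 7067 in combination. Among cells of at least 5115 UMIs the level was 5531 CPM in control, 4765 in anti-PD-1, 2498 in BTYNB and 2970.1 in combination. Combination and BTYNB were then nearer, and control and anti-PD-1 kept the higher levels.

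T cells (at least 2 UMIs of Cd3d, Cd3e and Cd3g) were 22 in control, 30 in anti-PD-1, 2481 in BTYNB and 158 in combination, so only the BTYNB and combination cells are compared. Their members summed to 3028 CPM in BTYNB (2989 to 3067) and 4015 in combination (3909.6 to 4122), a log2 ratio of 0.41 (0.36 to 0.45). Median depth was 2149 and 7500.0 UMIs. Among T cells of at least 5115 UMIs (241 in BTYNB) the order was reversed, with 4184 CPM in BTYNB and 4015 in combination. At 1000 UMIs, 20.7% of BTYNB (19.1 to 22.3%) and 31.6% of combination T cells (24.5 to 39.5%) had 4 or more member UMIs, with 30 shallower BTYNB cells left out, and 58.2% and 97.5% without thinning. The tumour markers summed to 1016 CPM in the BTYNB and 2282 CPM in the combination T gate, and to 3585 and 3727 in control and anti-PD-1, near the level of tumour cells. The 8 T cell markers had 3595 and 1583 CPM in BTYNB and combination. The myeloid markers had 1406 and 3339 CPM there, and the B cell markers 1735 and 3168. In combination the tumour, myeloid and B cell lists thus each exceeded the T cell list. The values of that gate are therefore not read as those of T cells alone. T cells with at most 2 keratin and 2 Lyz2 and Csf1r UMIs had 3117 CPM in BTYNB and 7015 in combination (59 cells). The part of depth and of RNA of tumour and other cells in the T cell values was not tested.

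Hmgb2 and Smc4 dominated the members in the T gate, with 55.0% of member UMIs in BTYNB and 38.3% in combination. The same limit on reading the gate holds for the values that follow. Hmgb2 had 1017 and 1072 CPM and Smc4 647 and 467, so Smc4 was the higher in BTYNB. The other 38 summed to 1364 and 2476 CPM. Top2a had 159.8 and 281, Cks2 139.8 and 195, and Mki67 125 and 222. Of the 40 members, 4 were higher in the T gate than in the tumour gate in BTYNB and 13 in combination. By subset of the gate, cells with Cd8a had 2961 CPM in BTYNB (903 cells) and 4969 in combination (78 cells), cells with Cd4 3515 and 5155 (426 and 20 cells), and cells with Foxp3, which marks regulatory T cells, 4287 in BTYNB (135 cells).

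A gate for B cells (at least 2 UMIs of Cd79a, Cd79b and Ms4a1, none of the Cd3 genes) gave 3025 CPM in control, 4216 in anti-PD-1, 2418 in BTYNB and 3569.7 in combination, in cells that held 3186 to 5107 CPM of tumour markers, so they are not called B cells here. The B cell markers summed to 1127 CPM in control, 988 in anti-PD-1, 6866 in BTYNB and 2406 in combination. Only in BTYNB did they exceed the tumour markers of the gate (3186 CPM), so its makeup differed between libraries. Over all cells of a library that passed the quality limits, whatever their gate, the members had 4321 CPM in control, 4308 in anti-PD-1, 2800.1 in BTYNB and 3621 in combination, an order in which the makeup of the library and the level within each kind of cell are mixed.

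**Figure D5:**
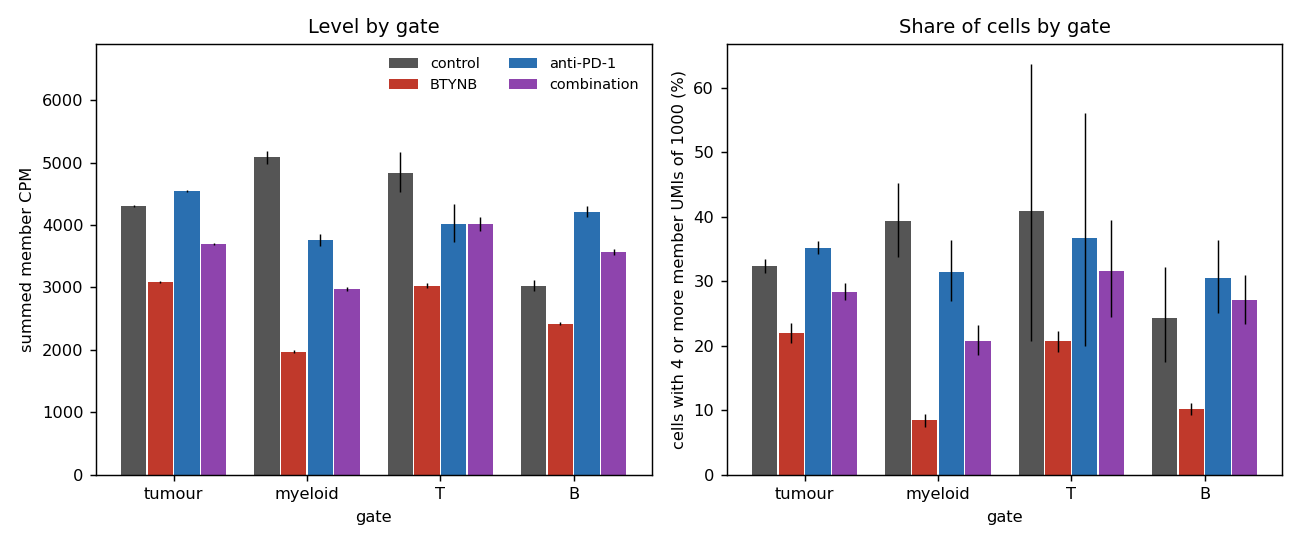
Left, summed member CPM by gate and library with 95% Poisson intervals; right, the share of cells with 4 or more member UMIs after thinning to 1000 UMIs, with 95% exact intervals. BTYNB has the lowest bar in each gate; the T bars of control and anti-PD-1 rest on 22 and 30 cells.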

How the data were processed

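Single-cell RNA was captured on the BD Rhapsody system from 1 pooled ascites sample per group. The authors deposited unnormalised UMI counts per gene and cell, made with the BD Rhapsody analysis pipeline, and the submitters' processing notes name the build GRCm39. Cells under 200 genes or over 33% mitochondrial UMIs were left out, which kept 7834 of 7858 cells in control, 12019 of 12163 in anti-PD-1, 18283 of 19247 in BTYNB and 7042 of 7074 in combination. The libraries held from 78603888 UMIs in combination to 114600397 in BTYNB. Cells were gated on summed UMIs of marker genes, without clustering. Scrublet called 0.0128% of control to 2.61% of BTYNB cells, too few in 3 libraries to have worked, so no cell was removed by its calls and the 5% of highest scores were removed as an alternative.

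Levels are pooled CPM with exact Poisson intervals, shares have exact Clopper-Pearson intervals, and ratios of CPM have intervals from the exact binomial share of UMIs. A ratio of a single gene is the difference of log2(CPM + 1), which understates changes of low genes, for genes whose tumour cells held 100 UMIs or more in some library. Cells were thinned at random without replacement (seed 1). The ratios were tested on simulated data. With 1 library per group no p-value was computed. Python 3.11.15, numpy 2.4.6, scipy 1.17.1, pandas 2.3.3, scanpy 1.11.5 and matplotlib 3.10.9 were used.

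The members, role groups, marker sets and pathway lists were chosen with earlier results of these data known. Genes were named by rule: in each role group the 2 members with the highest CPM in control tumour cells and the lowest and highest ratio of BTYNB to control, the 5 lowest and 5 highest ratios of each comparison, the 5 members with the highest CPM in myeloid and T cells, the 10 genes most like the summed members, and the 2 lowest and 2 highest ratios of BTYNB to control in each pathway list. Members outside the rule were named to account for the whole group. Alternatives changed the gates, floor, scaling, limits, fold, pseudocount, thinning and members, 1 at a time.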

Additional observations from a re-analysis of the deposited data

Results flagged for a closer look

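Hmgb2 was the member called in opposite directions by BTYNB without and with the antibody. In tumour cells its log2 ratio was -0.29 in BTYNB against control and 0.42 in combination against anti-PD-1. Each value compares 1 library with 1 other, and the difference between them was not tested. The contrast rests on the anti-PD-1 library, where Hmgb2 had 475 CPM, against 554 CPM or more in the other libraries. In myeloid cells too Hmgb2 was lowest in anti-PD-1, with 524 CPM.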

How the results depend on the processing

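No summed ratio of the tumour gate changed its sign under the alternatives listed next. Within 2 of its subsets anti-PD-1 against control was below 0 (-0.08 with Cxcl17 alone and -0.18 with the Cd24a set alone), and the order of the libraries changed for T cells at or above 5115 UMIs, for shares of tumour cells without thinning and for the ratio of late to G2 members without Hmgb2 and Smc4. The 320 alternative values of single members, with a pseudocount of 0.1 or without a minimum of UMIs, each stayed within that member's counting interval. Dropping the minimum could not move a member's ratio, because all members passed it and CPM used the totals of all genes. Summed log2 ratios are given in the order BTYNB to control, combination to anti-PD-1, anti-PD-1 to control and combination to BTYNB. They were -0.55, -0.47, 0.21 and 0.28 for the 35 members left without Hmgb2, Smc4, Cks2, Tacc3 and Ckap2, -0.47, -0.32, 0.090 and 0.24 without the 5% of cells with the highest doublet score, -0.41, -0.26, 0.056 and 0.20 in tumour cells of neither marker set, -0.52, -0.31, 0.12 and 0.34 as a mean over cells, -0.48, -0.38, 0.16 and 0.26 with median-of-ratios scaling, -0.46, -0.23, 0.019 and 0.25 with no floor on total UMIs, and -0.45, -0.31, 0.080 and 0.22 in tumour cells with no UMI of Lyz2, Csf1r or a Cd3 gene. In cells of 10000 to 20000 UMIs, a limit added after seeing the data, they were -1.33, -0.66, 0.26 and 0.93, the largest departure of all alternatives run. That window took unlike parts of the depth range of each library. With at least 10 keratin and Wt1 UMIs, combination to anti-PD-1 was -0.32. The cause of these departures was not tested.

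At 1.5-fold, 14 members were called lower in BTYNB than in control and 7 in combination than in anti-PD-1, anti-PD-1 had 2 higher and 0 lower than control, and 0 were higher in combination than in either library. Of all genes, 3.28% were lower in BTYNB than in control and 5.86% in combination than in anti-PD-1. In anti-PD-1 against control 5.91% were higher and 3.67% lower. In combination 6.17% were higher than in anti-PD-1 and 0.514% higher than in BTYNB. Median-of-ratios scaling raised the members called higher in anti-PD-1, relative to control, to 15, against 19.9% of all genes. In cells of 10000 to 20000 UMIs this number was 19, against 17.4% of all genes. There 40 members were higher in combination than in BTYNB (12% of all genes) and 0 higher in combination than in anti-PD-1 (34.5%).

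Shares of tumour cells past the limit, in the order control, anti-PD-1, BTYNB and combination, were 43.5, 45.6, 29.6 and 38.2% at 10 UMIs, 18.2, 21.9, 12.02 and 15.98% at 40, 43.5, 41.7, 41.0 and 40.2% without thinning and 39.4, 50.1, 12.9 and 28.7% in cells of 10000 to 20000 UMIs. In tumour cells of neither marker set they were 28.2% in control and 31.9% in anti-PD-1. Myeloid cells at or above 5115 UMIs had 5531, 4765 and 2498 CPM in control, anti-PD-1 and BTYNB, and myeloid cells with no keratin or Wt1 UMI had 5340.2, 3866 and 3026 in control, anti-PD-1 and combination. Combination cells with at least 6 Lyz2 and Csf1r UMIs had 2838 CPM, and BTYNB myeloid cells without the neutrophils 1879.5. T cells at or above 5115 UMIs had 4184 CPM in BTYNB, above combination. Those with at least 4 Cd3 UMIs had 3627 in BTYNB and 5915 in combination, and those with at most 2 keratin and 2 Lyz2 and Csf1r UMIs had 3117 and 7015. Without the highest doublet scores BTYNB T cells had 3116 CPM.

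No paired analysis was possible because each group is 1 pooled library. Counting intervals leave out the spread between animals, captures and days. The number of deposited cells and the lowest UMI total differ between libraries, so the cells compared are not chosen alike. T cells in control and anti-PD-1 were too few to compare.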
